A study of Mus musculus with 12 samples.

Results

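A pair of oligonucleotides with opposite intended action on the muscle microRNA miR-206 were set against each other on microarrays: antimiR-206, an inhibitor, and a small RNA that mimics the microRNA. The comparison takes the 3 arrays titled AM206 and the 3 titled siRNA, which is 6 of the 12 arrays of the series. All of them come from C2C12, an established mouse myoblast line. The antimiR-206 cells had been transfected with the inhibitor and cultured for 48 h, and carry the label of the beginning of differentiation. The mimic cells had been transfected with the mimic and cultured for 24 h, and are labelled undifferentiated. The labels do not say in which medium the cells of either group were kept. The arrays used here hold the inhibitor only at 48 h and the mimic only at 24 h, so oligonucleotide and culture time cannot be told apart. For scale, each gene's difference is set beside that of the remaining 6 arrays, C2C12 cells after 48 h (Day2, 3 arrays) and 24 h (Day1, 3 arrays) in differentiation medium, in which low serum lets myoblasts stop dividing and fuse. Lipofectamine 2000 transfection is given for all 12 samples, and whether Day2 and Day1 cells received a control oligonucleotide is not stated. Replicates are numbered but are not said to be separate cultures, so p-values here measure the spread between arrays, part or all of which may be technical.

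MiR-206 is one of the microRNAs made specifically in skeletal muscle, and its level rises as myoblasts leave the cell cycle and form myotubes. It acts through its seed, a short stretch near the 5′ end that pairs with complementary sites in the 3′ ends of messenger RNAs and lowers their stability or translation. It shares this seed with miR-1, so published targets of both are treated as 1 list. An inhibitor would be given to raise such targets and a mimic to lower them. The mouse sequences, from RefSeq (GRCm38.p6), are shown because the seed is the feature both oligonucleotides are aimed at. The hairpin lies on the plus strand at chr1:20679010-20679082 and its 3p arm, the guide strand, is in capitals in the first line. Bases 2 to 8, the seed, are in capitals in the second line.
mmu-mir-206 hairpin: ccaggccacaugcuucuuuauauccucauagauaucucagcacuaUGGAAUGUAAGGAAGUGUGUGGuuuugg
mmu-miR-206-3p: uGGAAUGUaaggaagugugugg
A site that pairs with the whole seed reads ACAUUCC. The sequences of the mimic and of the inhibitor were not used here. The arrays carry 0 probes annotated to Mir206, so neither the microRNA's level nor the uptake of either oligonucleotide was measured.

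Values are log2 intensities after background correction and quantile normalization. On this scale a difference of 1 is 2-fold, and values of about 4.2 to 4.7 lie at background. Median raw intensity was 49.8 to 58.9 on the 6 arrays, and 16922 to 18164 of 45281 probes (37.4% to 40.1%) were above background, with a detection p under 0.05. The number of arrays limits the precision, and in such bulk samples fewer cells of a type and less RNA per cell cannot be told apart. Of the 10653 genes tested, 8549 were above background on all 6 arrays and 201 on none of them.

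Replicate 1 of each group stood apart from its own group. Mimic replicate 1 correlated with mimic replicates 2 and 3 at Pearson r of 0.972 and 0.970 across genes, against 0.992 to 0.995 with the Day1 arrays. It differed from the mean of mimic replicates 2 and 3 by at least 2-fold at 646 genes, and from the Day1 mean at 32. AntimiR replicate 1 correlated with mimic replicates 2 and 3 at 0.995 and 0.992, and with its own group at 0.992. It was at least 2-fold from antimiR replicates 2 and 3 at 31 genes, and from mimic replicates 2 and 3 at 5. The other pairs were close, with r = 0.997 and 0 genes 2-fold apart between antimiR replicates 2 and 3, and r = 0.995 and 10 genes between mimic replicates 2 and 3. Because these arrays touch every result, values are given array by array, and counts are repeated without mimic replicate 1 and without both replicate 1 arrays. Leaving out arrays that lay nearest to another group by itself widens the gap between the rest. Genes that pass in such fits are therefore no independent evidence of a difference. These correlations run over genes of the same normalized arrays and describe likeness only.

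**Figure D1:**
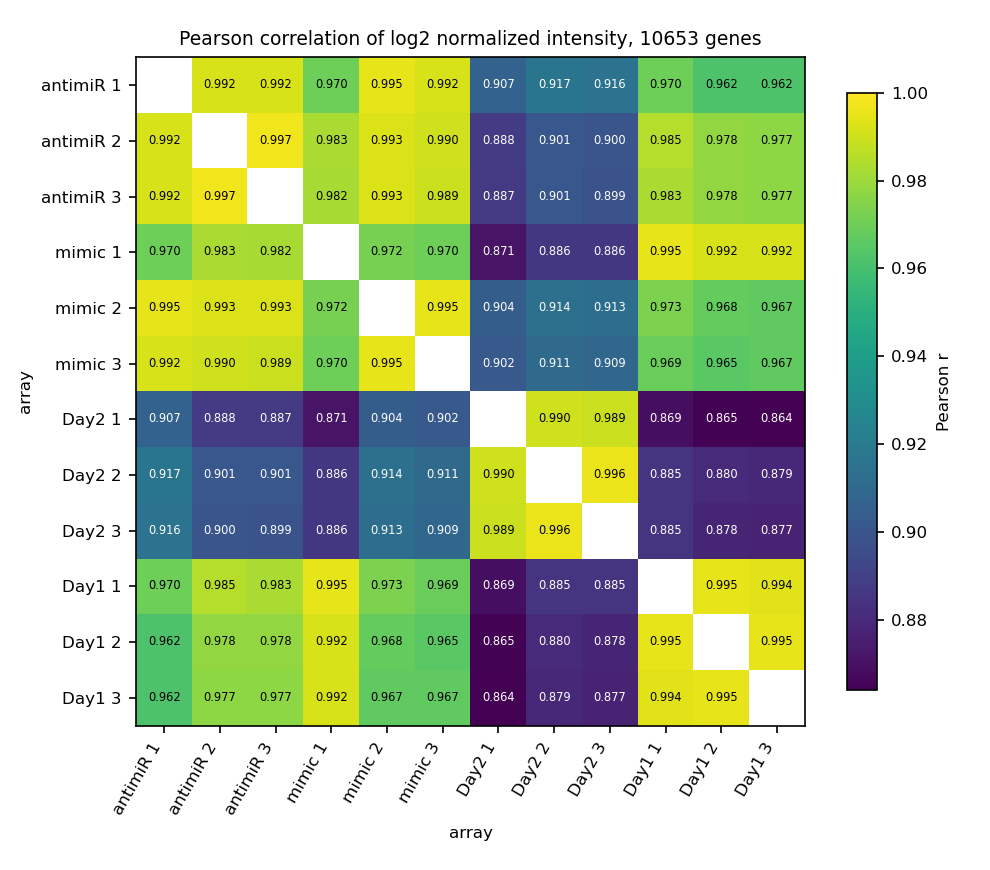
Pearson correlation of log2 normalized intensity over 10653 genes between each pair of the 12 arrays, with groups in the order antimiR, mimic, Day2 and Day1 on both axes and colour for r. Mimic replicate 1 is brightest with the Day1 arrays (0.992 to 0.995) and antimiR replicate 1 with mimic replicate 2 (0.995).

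The antimiR and mimic arrays gave no gene past the threshold. With limma and Benjamini-Hochberg adjustment over all 10653 genes, 0 genes (0%) differed at an adjusted p under 0.05, and the smallest adjusted p was 0.648. An unadjusted p under 0.05 was found for 507 genes (4.76%), 281 of them higher and 226 lower with antimiR-206. The differences were small across the array. The middle 95% of genes lay between -0.35 and 0.38, the median was 0.01, and 3 genes differed by 2-fold or more, all 3 lower with antimiR-206. The 3 antimiR values and the 3 mimic values did not overlap at 1047 genes (9.83%), 615 higher and 432 lower with antimiR-206.

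A missed threshold does not show that the groups were alike, so the intervals carry the comparison. The 95% interval of antimiR minus mimic lay within 2-fold in either direction for 10422 genes (97.8%) and reached 2-fold for 231. Under median scaling, which only brings the arrays to 1 median, the share was 32.5%, so the narrow intervals depend on the normalization. The median standard error was 0.15 and the median distance from the estimate to the end of its interval was 0.32, so for a typical gene a 2-fold difference would lie outside the interval. The spread was widest in the mimic group, with a median SD of 0.20 over genes, against 0.13 in antimiR and 0.14 and 0.12 in Day2 and Day1.

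The same 24 h of difference in time gave a far larger difference between the arrays in differentiation medium. Day2 and Day1 differed at 6088 genes (57.1%) by limma, 3002 higher and 3086 lower on Day2, and at 1879 under median scaling. Their middle 95% of differences lay between -1.95 and 2.51, and 2353 genes differed by 2-fold or more. Since antimiR minus mimic and Day2 minus Day1 share no array, the difference of the differences could be tested for each gene. It passed for 4701 genes (44.1%), 2388 positive and 2313 negative, and for 987 under median scaling. Of the 4701, 4600 were also called between Day2 and Day1, a difference that the test itself contains. Across genes the pair of differences correlated at r = 0.103. Without mimic replicate 1 it was -0.288, and without both replicate 1 arrays -0.43, so the sign of this description hangs on those arrays.

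**Figure D2:**
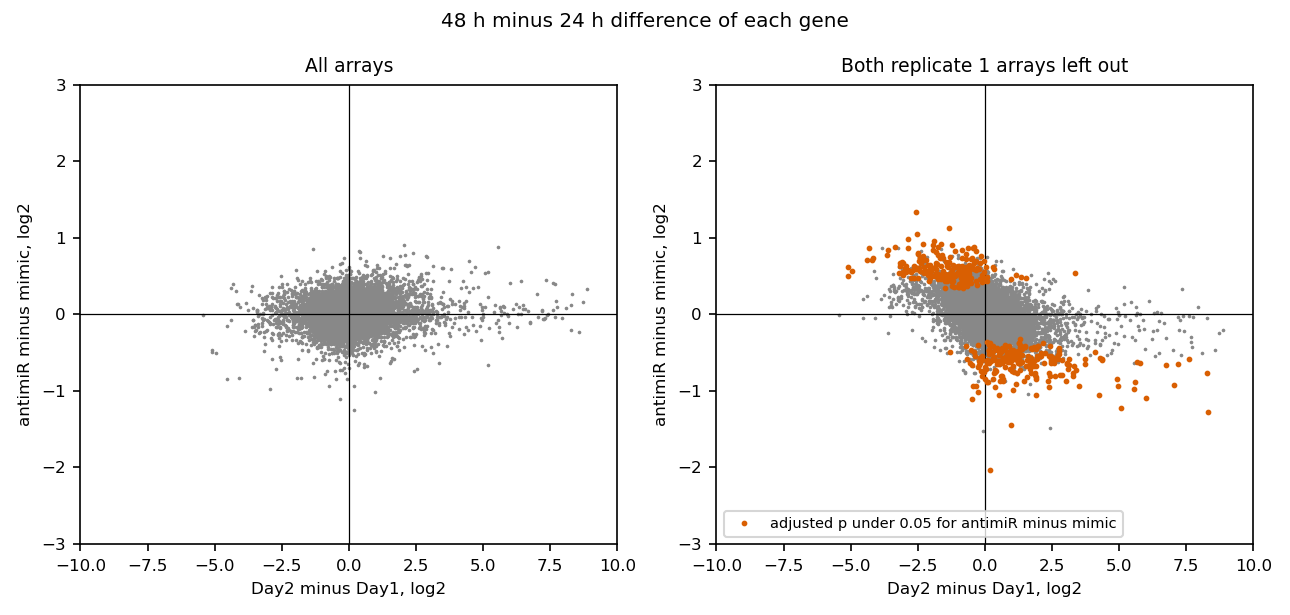
AntimiR minus mimic (vertical axis, log2) against Day2 minus Day1 (horizontal axis, log2, on a coarser scale) for each of 10653 genes, with all arrays on the left and both replicate 1 arrays left out on the right. Orange points mark genes at an adjusted p under 0.05 for antimiR minus mimic, 0 on the left and 444 on the right.

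The genes nearest to the threshold are given by name with the statement that all of them missed it. Among genes lower with antimiR-206, Bcl2l1, which encodes the survival factor Bcl-xL, had values of 6.29, 6.38 and 6.54 on the antimiR arrays, against 6.99, 7.05 and 7.08 on the mimic arrays. The groups did not overlap, and the mimic values sat near those of Day2 (mean 7.16) and above those of Day1 (6.80). The difference was -0.63 (95% interval -0.89 to -0.38, limma adjusted p = 0.648). Bcl2l1 passed in both of the fits that gave the replicate 1 arrays less or no part, with -0.60 and an adjusted p of 0.021 without both arrays, and -0.61 and 0.0073 with array weights. Both fits treat these arrays by their values in the same data, so this is no independent evidence. The 2 other Bcl2l1 probes above background differed by -0.58 and -0.40.

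Cald1, which encodes the actin-binding protein caldesmon, had 7.80, 7.34 and 7.30 on the antimiR arrays, against 8.11, 8.30 and 8.57 on the mimic arrays. Here too the groups did not overlap, and the difference was -0.84 (interval -1.23 to -0.46), while its 3 other probes gave -0.41 to 0.26. Cnn2, which encodes calponin 2, another actin-binding protein, averaged 7.13 ± 0.30 with antimiR-206 and 7.86 ± 0.36 with the mimic (SD, n = 3 each), a difference of -0.73, with -0.64 at its other probe. Both passed without both replicate 1 arrays, Cald1 with -1.11 (adjusted p = 0.00224) and Cnn2 with -0.69 (adjusted p = 0.0101).

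The zinc transporter gene Slc39a13 had 9.12, 8.71 and 8.63 with antimiR-206, against 9.44, 9.26 and 9.30 with the mimic, a difference of -0.51. The mitochondrial gene ND1, a subunit of respiratory complex I encoded in the organelle's own genome, had 12.77, 12.76 and 12.82, against 13.27, 13.32 and 13.57, a difference of -0.60. Ybx3, which encodes a cold-shock-domain protein that binds nucleic acids, differed by -0.70, the nuclear import receptor gene Ipo7 by -0.82 and the short-chain collagen gene Col8a1 by -0.63. For all 5 genes the lowest mimic array lay above the highest antimiR array. The other probes gave -0.43 for Slc39a13, -0.05 and -0.01 for Ybx3 and -0.43 for Col8a1.

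Xist, the non-coding RNA of X inactivation, averaged 7.69 ± 0.11 with antimiR-206 and 8.62 ± 0.39 with the mimic, a difference of -0.93 (interval -1.45 to -0.42). Its 3 other probes gave -0.93 to 0.02. Its level was 8.48 on Day2 and 9.23 on Day1. Erich5 had 7.91, 7.38 and 7.47 on the antimiR arrays, against 9.36, 8.08 and 8.64 on the mimic arrays, and was one of the 3 genes with a difference of 2-fold or more (-1.11). The other two, named after their values were seen, were the syndecan gene Sdc4 and the transcript 2900060B14Rik. Sdc4, a heparan sulfate proteoglycan of the cell surface, had 8.65, 8.33 and 8.50 with antimiR-206, against 8.81, 9.60 and 10.13 with the mimic. For 2900060B14Rik the values were 7.28, 6.93 and 6.67, against 6.97, 8.55 and 9.11, so mimic replicate 1 lay among the antimiR arrays. Day1 replicate 1 was likewise lowest in its group, with 7.24, 9.18 and 8.8 for this transcript and 8.44, 9.56 and 9.9 for Sdc4. Both genes thus varied between replicates within Day1 as well.

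Among genes higher with antimiR-206, the RNA-binding protein gene Rbm11 had 5.64, 5.43 and 5.71, against 4.46, 4.91 and 4.96 on the mimic arrays. The antimiR values were also above the Day2 mean of 4.76 and the Day1 mean of 4.39, but Rbm11 was above background on 2 of the 3 mimic arrays only. The difference was 0.82 (interval 0.49 to 1.15, adjusted p = 0.648). Slc25a1, the mitochondrial citrate carrier, had 8.51, 8.19 and 8.14 with antimiR-206, against 7.69, 7.80 and 7.67 with the mimic, a difference of 0.56 with no overlap, and 0.28 at its other probe.

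Ung, which encodes the glycosylase that removes uracil from DNA, had 7.51, 7.98 and 8.14 on the antimiR arrays, against 7.22, 7.08 and 6.78 on the mimic arrays. Its difference of 0.85 (interval 0.38 to 1.32) ran opposite to that between Day2 (6.48) and Day1 (7.80). It grew to 1.13 without both replicate 1 arrays (adjusted p = 0.0088), although its 2 other probes differed by 0.04 and 0.19. Snai1, a repressor of epithelial genes, had 8.08, 8.04 and 8.05, against 7.21, 7.68 and 7.61, a difference of 0.56, with 0.08 at its other probe. Ret, a receptor tyrosine kinase, differed by 0.47, the forkhead factor Foxa3 by 0.58, the endoplasmic reticulum peptidase gene Ermp1 by 0.42, Ankrd13c by 0.66 and the histone gene H2bc9 by 0.61. Ret was above background on only 1 of the 3 mimic arrays and Ankrd13c on 2 of the 3. Gpsm3, a modulator of G-protein signalling, was not well above background on any mimic array, and was at least 1.16-fold higher with antimiR-206 (measured means 4.89 and 4.37).

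**Figure D3:**
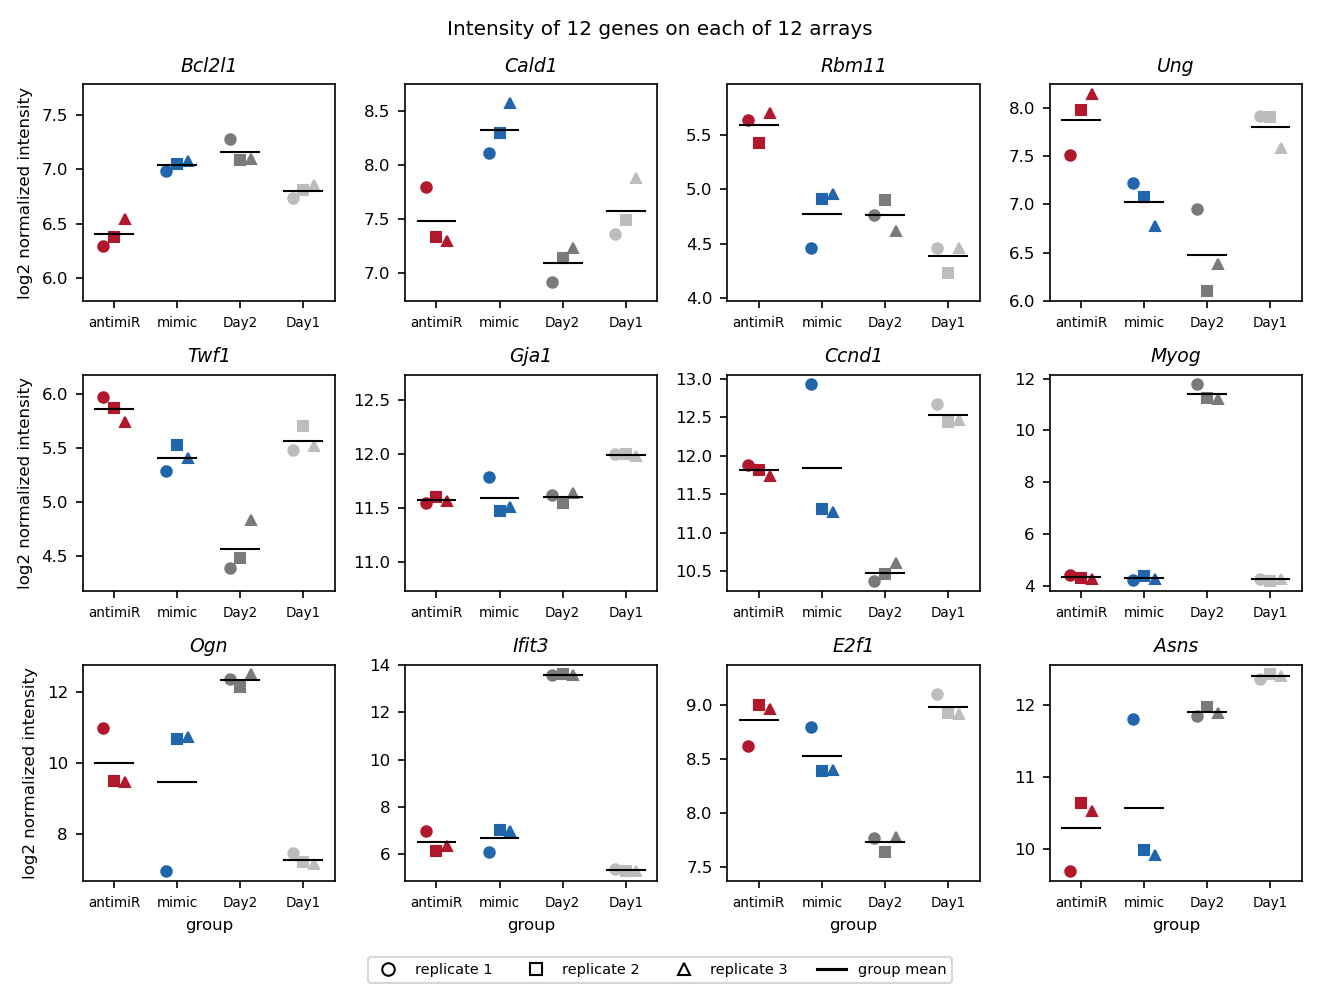
Log2 normalized intensity of 12 genes on each array, with the groups antimiR, mimic, Day2 and Day1 from left to right, a marker shape for each replicate number and a bar for the group mean. Bcl2l1 and Rbm11 show no overlap between antimiR and mimic, while at Ogn, Asns and Ccnd1 the circle of mimic replicate 1 lies far from the other mimic arrays and near the Day1 values.

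Targets published for miR-1 or miR-206 were looked at next, because they are the messages that the 2 oligonucleotides would be given to move. Of 40 listed genes, 29 were tested and 27 of these were above background on all 6 arrays. None of the 29 passed the threshold. Their median difference was 0.05, beside 0.01 over all genes, with a range from -0.11 to 0.74, and 3 had an unadjusted p under 0.05, all higher with antimiR-206, beside 4.76% of all genes. The 3 antimiR and 3 mimic values did not overlap for 3 of the 29, beside 9.83% of all genes. For 28 of the 29 the 95% interval lay within 2-fold.

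Several targets were nearly level. Gja1, the gap junction protein connexin 43 and a target of miR-206 in differentiating myoblasts, had 11.55, 11.60 and 11.57 with antimiR-206, against 11.79, 11.47 and 11.51 with the mimic. The antimiR values lay between the mimic values, and the difference was -0.02 with an interval from -0.21 to 0.18. Timp3, an inhibitor of matrix metalloproteinases, differed by -0.07 (interval -0.28 to 0.14). The actin-associated genes Tagln2 and Coro1c differed by 0.01 (-0.26 to 0.28) and -0.08 (-0.33 to 0.16).

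The chromatin remodelling subunit gene Smarcd2 differed by 0.09 (-0.15 to 0.32). The histone deacetylase gene Hdac4 had 7.69, 7.31 and 7.55 with antimiR-206, against 7.07, 7.28 and 7.68 with the mimic, and differed by 0.17 (-0.18 to 0.52). Tkt, transketolase of the pentose phosphate pathway, differed by 0.12 (-0.26 to 0.50). All of these intervals include 0 and end well short of 2-fold.

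Twf1 and Ets1 stood at the upper end. Twf1, the actin monomer-binding protein twinfilin 1, had 5.97, 5.87 and 5.74 on the antimiR arrays, against 5.29, 5.53 and 5.41 on the mimic arrays, with no overlap. Its difference was 0.45 (interval 0.14 to 0.76, adjusted p = 0.952), opposite in sign to Day2 minus Day1 (-0.99). The difference of the differences, 1.44, passed with limma's adjusted p of 7.22e-05. Twf1 was above background on 1 of the 3 Day2 arrays only, so the sizes of -0.99 and 1.44 depend on the background floor. Ets1, a transcription factor, had 8.65, 8.79 and 8.71 with antimiR-206, against 8.6, 8.18 and 8.25 with the mimic, and differed by 0.37 (0.08 to 0.66). Ets1 passed without both replicate 1 arrays (0.53, adjusted p = 0.0327) and with array weights (0.52, adjusted p = 0.014). Twf1 passed in neither, with 0.34 in each and adjusted p of 0.322 and 0.123.

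Other targets turned on the replicate 1 arrays. Notch3, a Notch receptor, had 9.68, 9.04 and 9.13 on the antimiR arrays, against 7.41, 8.99 and 9.22 on the mimic arrays. Its difference of 0.74 was the highest of the list and rested on mimic replicate 1, which was close to the Day1 mean of 7.36. Without that array the difference was 0.18. Ccnd1, cyclin D1, had 11.88, 11.81 and 11.74 with antimiR-206, against 12.93, 11.31 and 11.27 with the mimic. The antimiR values lay between mimic replicate 1 and the other two, and the difference of -0.03 became 0.48 without both replicate 1 arrays (adjusted p = 0.0176). Ccnd1 did not pass with array weights (0.42, limma adjusted p = 0.0563).

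Igf1, the growth factor, had 6.08, 4.93 and 5.24, against 4.47, 5.70 and 6.0. Its difference of 0.03 became -0.76 without both replicate 1 arrays (limma adjusted p = 0.0285). It did not pass with array weights (-0.54, limma adjusted p = 0.0977). Fstl1 had 10.79, 10.42 and 10.76, against 9.72, 10.80 and 11.12, and Met, the receptor of hepatocyte growth factor, differed by 0.09 (-0.37 to 0.55). Smarcd1, of the same remodelling complex as Smarcd2, differed by -0.08. Utrn, utrophin, was above background on 2 of the 3 antimiR arrays and on 0 of the 3 mimic arrays (means 4.64 and 4.42). The targets Pola1, Pax3, Pax7, G6pdx and Pgd had no probe that could be tested.

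**Figure D4:**
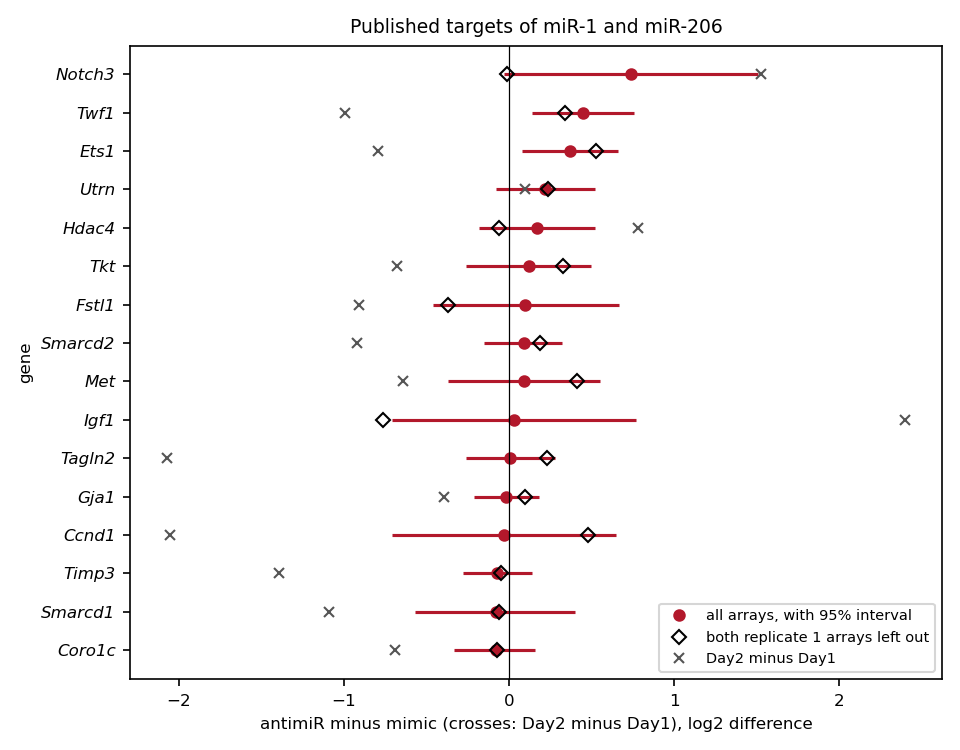
Log2 difference antimiR minus mimic of 16 published targets (circles, with 95% interval), the same without both replicate 1 arrays (diamonds) and Day2 minus Day1 (crosses), with genes ordered by the circle. Of the 16 shown, Twf1 and Ets1 are the 2 whose interval lies above 0, while Igf1 and Ccnd1 have circles near 0 and diamonds far to the left and right of it. Of all 29 targets tested, 3 had an unadjusted limma p under 0.05, and not all of them are shown.

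Genes of terminal muscle differentiation differed in level on these arrays, from background to high, and none passed the threshold. Myog, the factor that starts terminal differentiation, was not above background on any of the 6 arrays (4.41, 4.31 and 4.25 with antimiR-206, 4.23, 4.37 and 4.24 with the mimic), while it averaged 11.42 on Day2. The antimiR arrays, labelled as the beginning of differentiation, thus gave no Myog signal. Creatine kinase Ckm and cardiac actin Actc1 were likewise not above background on any of the 6, with Day2 means of 10.11 and 11.54. Of 32 tested sarcomere genes 16 were above background on all 6 arrays and 9 on none. None of the 32 passed for antimiR minus mimic. Because a gene could enter the test through the Day2 arrays alone, as Myog, Ckm and Actc1 did, no count or median of this list is given for Day2 minus Day1.

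Actin and troponin genes that were above background lay far below their Day2 levels. Skeletal actin Acta1 had 6.28, 5.98 and 5.97 on the antimiR arrays, against 6.05, 6.46 and 6.42 on the mimic arrays, far below the Day2 mean of 14.74. The fast troponin gene Tnni2 had 6.47, 5.89 and 5.8, against 5.08, 6.21 and 5.87, with a Day2 mean of 13.93. The slow troponin gene Tnni1 differed by 0.45, with 4.97 ± 0.17 on antimiR arrays and 4.51 ± 0.21 on mimic arrays (SD, n = 3 each), near background. Cryab, a small heat-shock protein of muscle, had 9.69, 9.78 and 9.68, against 10.28, 10.00 and 10.15, a difference of -0.43 with no overlap.

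Tnnt1, slow troponin T, is named after its values were seen. It had 10.94, 9.64 and 9.71 on the antimiR arrays, against 7.52, 10.77 and 10.76 on the mimic arrays, so antimiR replicate 1 lay beside mimic replicates 2 and 3. Of 23 genes of excitation-contraction coupling and the neuromuscular junction, and of 20 genes of muscle energy metabolism, 0 passed, with median differences of 0.07 and -0.02. Jph2, which ties the sarcoplasmic reticulum to the cell membrane, differed by -0.51, but by -0.04 at each of its 2 other probes. The synapse organizer Dok7 was not well above background on any antimiR array. Cox6a2, the muscle form of a cytochrome oxidase subunit, had 4.73, 5.35 and 5.32, against 7.73, 4.65 and 4.93, the high value being that of mimic replicate 1 (Day1 mean 9.23). In the list of myoblast adhesion and fusion, 0 of 30 passed and the median was 0. Ncam1, a neural cell adhesion molecule also found on myotubes, differed by -0.39 and the membrane trafficking gene Ehd1 by -0.49.

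No regulator of myogenesis passed the threshold. Myod1, the myogenic determination factor, had 10.26, 9.95 and 9.99 on the antimiR arrays, against 8.90, 10.39 and 10.50 on the mimic arrays. The antimiR values lay inside the mimic range, and the difference of 0.14 turned to -0.47 without both replicate 1 arrays (adjusted p = 0.0187). Myod1 did not pass with array weights (-0.36, limma adjusted p = 0.0964). The cell-cycle inhibitor Cdkn1a had 10.81, 10.69 and 10.69, against 11.17, 10.77 and 10.59, and a Day2 mean of 13.61. Of 11 regulators tested 0 passed, with a median of 0.04, and the homeodomain factor Six4 and its partner Eya1 differed by 0.27 and 0.30 without overlap, though the other probe of Eya1 gave -0.27. Of 13 inhibitors of myogenic differentiation 0 passed, with a median of 0.22, beside 0.01 over all genes. This median was 0.08 without mimic replicate 1 and 0.09 without both replicate 1 arrays. Snai1, given above, and the Notch effector Hes1 (7.99, 8.0 and 7.92, against 7.89, 7.64 and 7.57) did not overlap, and the repressor Zeb2 differed the other way by -0.52. Myf5 and Mef2c had no probe that passed the filter on dim probes.

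Cell-cycle genes were high on all 6 arrays. Of 54 tested genes 52 were above background on all 6, 0 passed and the median difference was 0.02, against -2.55 for Day2 minus Day1, where 51 were lower and 2 higher, beside 57.1% of all genes called in either direction. Cdc20, which switches on the anaphase-promoting complex, had 10.92, 11.52 and 11.46 on the antimiR arrays, against 11.77, 11.26 and 11.32 on the mimic arrays, and a mean of 7.10 on Day2 and 11.66 on Day1. The antimiR range and the mimic range overlapped. E2f1, a factor that switches on S-phase genes, had 8.62, 9.0 and 8.96, against 8.79, 8.39 and 8.40, a difference of 0.34. Ccnd2, cyclin D2, had 7.65, 7.76 and 7.70, against 9.09, 7.81 and 8.01, a difference of -0.60 with no overlap.

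Array by array, the list showed an order that the group means hide. Relative to each gene's mean over the 6 arrays, the median of the cell-cycle list was -0.27, 0.14 and 0.14 on the antimiR arrays, against 0.34, -0.23 and -0.23 on the mimic arrays. Mimic replicate 1 was thus highest and antimiR replicate 1 lowest. Without both replicate 1 arrays, 16 of the 54 genes passed, all higher with antimiR-206, and the median was 0.37, beside 4.17% of all genes called and a median of 0.02 over all genes. With array weights 15 passed, all higher, beside 4.95% of all genes. Without mimic replicate 1 alone 0 passed and the median was 0.22.

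Most of those 16 genes act in DNA replication or in the entry into S phase. They include the helicase subunits Mcm2, Mcm4, Mcm5 and Mcm7, the origin factors Cdc6, Cdt1, Cdc45, Gins2 and Mcm10, the cyclins Ccne1 and Ccne2, and thymidine kinase Tk1, named because they passed in that fit. Mcm4 had 10.46, 10.94 and 10.93 on the antimiR arrays, against 10.85, 10.18 and 10.12 on the mimic arrays. Mcm10 had 7.76, 8.54 and 8.55, against 9.06, 7.61 and 7.52. Ccne2 had 5.70, 6.75 and 6.87, against 6.29, 5.57 and 5.96. At each of these genes antimiR replicates 2 and 3 were above mimic replicates 2 and 3 while antimiR replicate 1 was near those mimic arrays, and the gap without both replicate 1 arrays was 0.79, 0.98 and 1.05.

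Replication-dependent histone genes, which are made in S phase, had a median difference of 0.25 over 26 tested, the largest positive median among the lists. Of them 0 passed, and 6 had an unadjusted p under 0.05, all higher with antimiR-206, beside 4.76% of all genes. The 3 antimiR and 3 mimic values did not overlap for 5, all higher, beside 9.83% of all genes. H2bc9 had 8.86, 9.02 and 9.15, against 8.0, 8.63 and 8.58, and H2bc14 had 7.70, 7.99 and 8.04, against 7.0, 7.46 and 7.59. Unlike most cell-cycle genes, both were higher on Day2 (means 9.74 and 8.59) than on Day1 (8.21 and 7.23). For Day2 minus Day1, 10 of the 26 were higher and 14 lower, beside 57.1% of all genes called in either direction. Histone genes are near-identical copies, so probes may not tell them apart. Without both replicate 1 arrays 5 were higher and 1 lower, with a median of 0.27, beside 4.17% of all genes called.

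The proliferins, prolactin-like hormones made by growing cells, followed the arrays in the same order. Prl2c2 had 9.47, 11.20 and 11.05 on the antimiR arrays, against 12.13, 10.63 and 10.48 on the mimic arrays, and means of 6.97 on Day2 and 11.94 on Day1. Its difference was -0.51 with an interval from -1.43 to 0.42. Prl2c4 gave -0.49 (-1.36 to 0.38). Both turned positive and passed without both replicate 1 arrays, with 0.57 and 0.50. Neither passed with array weights, with 0.30 and 0.28 (limma adjusted p = 0.439 and 0.406). The members are close paralogs and their probes may share signal.

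Interferon-response genes ran the other way on the same arrays. Of 50 tested, 30 were above background on all 6 arrays, 0 passed and the median was -0.03. Ifit3, an antiviral effector, had 7.0, 6.15 and 6.33 on the antimiR arrays, against 6.09, 7.04 and 6.97 on the mimic arrays, and a Day2 mean of 13.59. AntimiR replicate 1 lay with mimic replicates 2 and 3, and mimic replicate 1 with antimiR replicates 2 and 3. Relative to the 6-array mean the list's median was 0.16, -0.10 and -0.10 on the antimiR arrays, against -0.21, 0.13 and 0.10 on the mimic arrays. Without both replicate 1 arrays 8 passed, all lower with antimiR-206, with a median of -0.20, beside 4.17% of all genes called. With array weights 8 passed, all lower, beside 4.95% of all genes. Isg15, Irf9 and Oasl2 were among the first 8, at -0.66, -0.79 and -0.92.

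Ifit2 had 7.54, 7.60 and 7.39, against 7.36, 7.27 and 7.07, and the chemokine gene Cxcl10 had 5.10, 5.11 and 5.28, against 5.57, 5.40 and 5.8. The groups did not overlap at either gene, and the differences of 0.28 and -0.42 had opposite signs. Ccl5, another chemokine, had 11.18, 10.76 and 10.56, against 9.87, 11.13 and 11.03, all above the Day1 mean of 7.51. Ccl2 differed by -0.50 with no overlap. Of 17 MHC class I and antigen-processing genes 0 passed, with a median of 0.05, Tap1 at 0.27 and Psmb8 at 0.50 (7.97, 7.44 and 7.52, against 5.90, 7.79 and 7.72). Of 27 chemokine, cytokine and complement genes and 14 genes of nucleic acid sensing 0 passed, with medians of -0.05 and -0.04. From the last list, the adaptor gene Sting1 and the interferon transcription factor gene Irf7 differed by 0.27 and -0.22, Irf7 being above background on 1 of the 6 arrays.

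**Figure D5:**
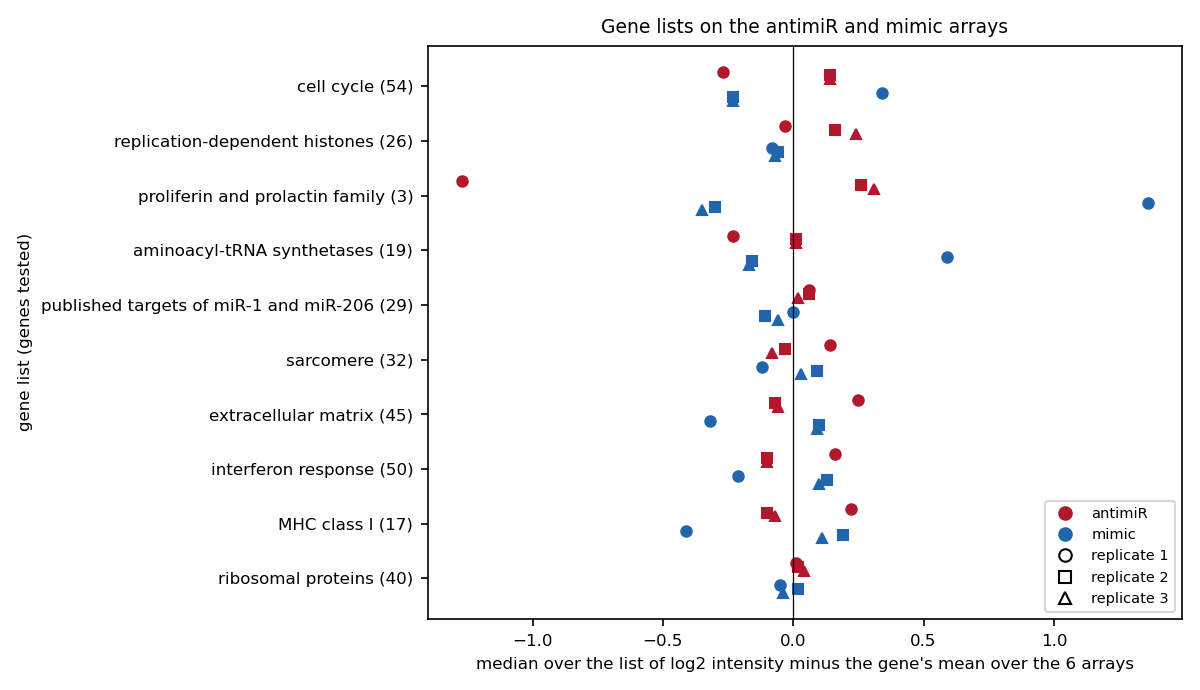
For 10 gene lists, the median over the list of log2 intensity minus each gene's mean over the 6 arrays, on each antimiR array (upper row of each list) and mimic array (lower row), with a marker shape for each replicate. In the cell-cycle, proliferin and aminoacyl-tRNA synthetase lists mimic replicate 1 is farthest right, and in the matrix, interferon and MHC class I lists farthest left.

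Extracellular matrix genes shared the interferon order. Of 45 tested 0 passed and the median was 0.09. Relative to the 6-array mean the list's median was 0.25, -0.07 and -0.06 on the antimiR arrays, against -0.32, 0.10 and 0.09 on the mimic arrays. Ogn, the proteoglycan osteoglycin, named after its values were seen, had 11, 9.51 and 9.47, against 6.95, 10.69 and 10.73, the lowest value of the 6 being that of mimic replicate 1. Col6a1, a chain of collagen VI, had 11.66, 11.03 and 11.03, against 9.23, 11.49 and 11.21, and its difference of 0.60 became -0.11 without mimic replicate 1. Decorin, Dcn, had 7.47, 6.46 and 6.66, against 5.92, 7.22 and 7.18, and turned from 0.09 to -0.64 without both replicate 1 arrays (adjusted p = 0.0314). It did not pass with array weights (-0.51, limma adjusted p = 0.0901). Without both replicate 1 arrays 1 matrix gene was higher and 7 lower, with a median of -0.16, beside 4.17% of all genes called.

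Ccn2, connective tissue growth factor and a target of TGF-beta signalling, had a negative difference in each of the 25 alternative settings tried, from -1.2 to -0.49. It had 9.01, 7.95 and 7.88, against 9.68, 8.78 and 8.87, a difference of -0.83 (interval -1.45 to -0.21). It was -0.54 without mimic replicate 1, where it did not pass, and -0.91 without both replicate 1 arrays (adjusted p = 0.00489). Fst, follistatin, which binds and blocks activins and myostatin, had 5.49, 5.52 and 5.71, against 6.72, 5.96 and 6.11, a difference of -0.69 with no overlap. Of 22 genes of the TGF-beta and BMP response 0 passed, with a median of 0.02, and of 12 Notch pathway genes 0 passed, with a median of 0.05.

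Some genes of the amino acid and unfolded protein stress response were far higher on mimic replicate 1 than on the other 5 arrays, while the list's median there was 0.19 above the 6-array mean. Trib3, a pseudokinase induced by this response, had 5.91, 6.09 and 5.85 on the antimiR arrays, against 8.35, 5.67 and 6.04 on the mimic arrays, with 9.55 on Day2 and 10.07 on Day1. Its difference was -0.74 with an interval from -1.76 to 0.29, and 0.10 without mimic replicate 1. Chac1, a glutathione-degrading enzyme, had 7.76, 7.92 and 7.94, against 10.58, 8.03 and 7.78, and its difference of -0.93 became -0.03. Asns, asparagine synthetase, had 9.69, 10.63 and 10.53, against 11.80, 9.98 and 9.92, and turned from -0.29 to 0.63 without both replicate 1 arrays (adjusted p = 0.00185). It did not pass with array weights (0.45, limma adjusted p = 0.108).

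Of 38 genes of this response 0 passed, with a median of -0.09. Sesn2 and Slc3a2, which take part in amino acid sensing and uptake, differed by -0.51 and -0.35 with no overlap. The other probe of Sesn2 gave 0.07. Of 19 aminoacyl-tRNA synthetases 0 passed and the median was -0.18, the synthetase genes Mars1 and Eprs differing by -0.45 and -0.28. On mimic replicate 1 the synthetase list stood 0.59 above the 6-array mean, and without both replicate 1 arrays its median was 0.21, with 0 called.

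The remaining lists gave 0 calls as well. Of 22 genes of p53 and apoptosis the median was -0.12 and 4 had an unadjusted p under 0.05, all lower, beside 4.76% of all genes. Besides Bcl2l1 they included Mdm2, the ubiquitin ligase that restrains p53, with 8.88, 8.91 and 8.95 on the antimiR arrays, against 10.20, 9.15 and 9.36 on the mimic arrays (difference -0.66, no overlap). The 2 other probes of Mdm2 gave -0.32 and 0.01. Of 29 genes of the pentose phosphate pathway and NRF2 response the median was -0.11. The glutathione transferase Gsta4 had 10.98, 10.95 and 10.88, against 11.76, 11.14 and 11.34, a difference of -0.48. Gstp1, of the same enzyme family, had 13.62, 13.67 and 13.74, against 13.45, 13.45 and 13.44, a difference of 0.23. The groups did not overlap at either gene and the family members differed in opposite directions at these probes. The 2 other probes of Gstp1 gave -0.08 and 0.19.

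Abundant housekeeping messages had narrow intervals. The median was 0.01 over 40 ribosomal protein genes and 0.03 over 45 genes of oxidative phosphorylation, and the interval of every tested gene of both lists lay within 2-fold. Rpl27 had 14.32, 14.46 and 14.52, against 14.16, 14.19 and 14.03 (0.31), and Rpl37 had 14.46, 14.33 and 14.48, against 14.81, 14.71 and 15.04 (-0.43). Ribosomal protein genes have many pseudogene copies, and the 2 other probes of Rpl37 differed by 0.02 and 0.16. The ATP synthase subunit genes Atp5l and Atp5j differed by 0.28 and 0.19. Of 19 cholesterol synthesis genes the median was -0.14, with Insig1, a sterol sensor partner, at -0.29 and the reductase gene Dhcr7 at -0.27.

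Of 28 genes of glycolysis and hypoxia the median was 0.09, with the glucose transporter gene Slc2a1 at -0.22 and the carbonic anhydrase gene Car9 at 0.43. The 2 other probes of Car9 gave -0.32 and 0.13. Among 19 immediate early genes the median was 0.01, with Klf6 and Ier3 at -0.36 and -0.30. The 14 genes of the microRNA machinery had a median of 0.06. Drosha, the nuclease that cuts microRNA hairpins out of their primary transcripts, had 9.26, 9.47 and 9.51, against 9.52, 9.10 and 8.97. It differed by 0.22, or by 0.46 without both replicate 1 arrays (limma adjusted p = 0.0429). Over all arrays its other probe gave -0.09. Ddx6, a helicase of translational repression by microRNAs, differed by 0.22 with no overlap, though its 3 other probes gave -0.62 to -0.42.

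Over all genes, the counts of calls depended on the replicate 1 arrays. Leaving out mimic replicate 1 gave 1 gene past the threshold, Wdr89, with 10.30, 10.24 and 10.22 on the antimiR arrays and 10.98 and 10.81 on mimic replicates 2 and 3. Leaving out both replicate 1 arrays gave 444 genes (4.17%), 216 higher and 228 lower with antimiR-206. Array weights, by which limma gives arrays far from their group less say, gave 527 genes (4.95%), 285 higher and 242 lower. The lowest weights were 0.131 for mimic replicate 1, 0.361 for Day2 replicate 1 and 0.479 for antimiR replicate 1. The fits called 321 genes in common, in the same direction. Mimic replicate 1 and antimiR replicate 1 were chosen for leaving out because they lay nearest to arrays of another group. That choice by itself widens the gap between the remaining antimiR and mimic arrays. The counts therefore show how far the result rests on single arrays and are no independent evidence of a difference.

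The cells carried the markers of their line. Of 7 defining markers of muscle lineage 6 were tested and all 6 were above background on all 6 arrays, with differences from -0.03 to 0.34. Desmin, Des, had 11.64, 11.33 and 11.22 on the antimiR arrays, against 10.70, 11.61 and 11.40 on the mimic arrays, and the acetylcholine receptor subunit gene Chrna1 had 12.12, 12.05 and 12.04, against 10.87, 12.14 and 12.18. Markers of other cell types were few. Tested were 3 of 8 osteoblast, 3 of 7 adipocyte, 1 of 6 endothelial and 2 of 7 macrophage markers, of which 1, 3, 0 and 1 were above background on all 6 arrays. The osteoblast genes Alpl and Bglap lay at 4.67 and 4.74 with antimiR-206 and 4.47 and 4.62 with the mimic, at or near background. The macrophage receptor gene Csf1r was not well above background on any antimiR array, and Cd14, a co-receptor for bacterial lipopolysaccharide, had 7.38, 7.30 and 7.35, against 6.99, 7.08 and 7.07. The lipase gene Lpl had 9.93, 9.22 and 9.23, against 8.23, 9.65 and 9.66, and Pparg differed by -0.03, while Vwf was not above background on any of the 6.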

How the data were processed

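RNA of 12 C2C12 samples, biotin-labelled, was read on Illumina bead arrays. The authors' deposited scanner output gives a raw intensity per probe, with no background subtraction or normalization named in its header. Beside each intensity the deposited table gives a detection score that rises with brightness, and a detection p was taken as 1 minus it. A second table by the authors holds log2 processed values, and lumi is named, without a version, per the submitters' processing notes. The background step behind those values was not given in the sources used here. Between the tables, Day2 replicates 2 and 3 are exchanged (Spearman rho of 1 with the other's processed column, 0.882 with its own), while all 6 antimiR and mimic columns matched their own.

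Background was removed from the scanner intensities by limma's normexp method (limma 3.58.1 under R 4.3.3). It drew the negative controls out of the detection p, and 16 was added as offset. The 12 arrays were then quantile-normalized and put on the log2 scale. Probes with a detection p under 0.05 on at least 3 of 12 arrays were kept, 19809 of 45281. A filter over all groups keeps some genes only through Day2. The probe annotation gave 34885 probes with 1 symbol, 18 with several and 10378 with none, and 34807 of the named ones were found in the RefSeq gene table. The probe with the highest mean stood for its gene, which gave 10653 genes. Of 105 named genes 49 had another kept probe, in 15 cases with the opposite sign for at least 1, and 0 of these probes passed.

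One limma fit held 4 group means over all 12 arrays, with variances that follow a trend with intensity, 8 degrees of freedom in the residuals and 5.36 in the prior. Contrasts were antimiR minus mimic, Day2 minus Day1 and the difference of the differences, two-sided, with Benjamini-Hochberg adjustment over all genes and a threshold of 0.05. Where all arrays of a group were at background for a gene, a fold is given as at least its size, with dim values set no lower than that array's dimmest probe above background. At most a fraction of 0.00775 of raw values was identical between arrays. The scripts were tested on simulated data.

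The comparison, the gene lists and the tests were chosen with earlier results of these data known. Named genes were the 10 with the smallest unadjusted p in each direction, since 0 passed, the 2 with the smallest unadjusted p of each list, and a set list of targets, muscle, cycle, interferon, stress and matrix genes. Others are said to have been named after their values were seen. Of the set list, Pola1, Pax3, Pax7, Pgd, Myf5 and Mef2c had no kept probe, and G6pdx and Mki67 had no probe of that symbol. Alternatives tried were the arrays fitted or normalized, median scaling, background correction and offset, the authors' processed values, the filters on dim probes, all kept probes, array weights, the replicate number as a block, variances without a trend, and arrays left out.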

Additional observations from a re-analysis of the deposited data

Results flagged for a closer look

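The 48 h minus 24 h difference differed between the oligonucleotide arrays (antimiR minus mimic) and the arrays in differentiation medium (Day2 minus Day1) at 4701 genes, by limma's contrast of the differences with an adjusted p under 0.05. Values below are antimiR minus mimic less Day2 minus Day1, in log2. Of the 105 named genes 72 passed, beside 44.1% of all genes. Many were named for a small p in antimiR minus mimic, which this contrast contains, or as known muscle, cycle or interferon genes. The share is therefore no result about them. Oligonucleotide and time cannot be told apart here. Under median scaling 987 genes passed. Myog, Ckm, Actc1 and Vwf were at background on all antimiR and mimic arrays, so their value is nearly that of Day2 minus Day1 with its sign turned. Sizes depend on the background floor where a gene was above it on 0 of 3 arrays of a group: on Day1 for these 4 genes, Tnni1 and Irf7, on Day2 for Smarcd1 and Ret, on the antimiR arrays for Dok7 and Irf7, and on the mimic, Day2 and Day1 arrays for Gpsm3. Day2 was at least 107-fold above Day1 for Myog, 115-fold for Actc1, 142-fold for Tnni1, 42.7-fold for Ckm, 20.3-fold for Irf7 and 2.14-fold for Vwf.

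Muscle genes gave negative values: Acta1 -8.81, Tnni2 -8.55, Actc1 -7.34, Myog -7.15, Tnni1 -6.87, Ckm -5.88, Cox6a2 -4.01, Ncam1 -3.71, Jph2 -3.66, Des -2.63, Cryab -2.49, Dok7 -2.34 and Chrna1 -1.64. Interferon, chemokine and antigen-processing genes were negative too, with Ifit3 at -8.49, Irf7 at -4.94, Cxcl10 at -4.06, Ccl5 at -3.28, Psmb8 at -2.16, Ifit2 at -2.11, Ccl2 at -1.33 and Tap1 at -0.89. Matrix and growth factor genes were also negative, with Dcn at -5.69, Col6a1 at -2.91, Igf1 at -2.37, Col8a1 at -2.18, Ccn2 at -1.98 and Fst at -1.24.

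Growth genes gave positive values, with Prl2c4 at 4.6, Prl2c2 at 4.46, Cdc20 at 4.41, Ung at 2.18, Ccnd1 at 2.02 and E2f1 at 1.58. Of the 29 published targets tested, 16 passed with positive and 6 with negative values, beside 44.1% of all genes. The contrast contains Day2 minus Day1, whose median over this list was -0.64. There 17 were lower and 8 higher, beside 57.1% of all genes called. AntimiR minus mimic itself had a median of 0.05 with 0 calls. The positive values therefore do not by themselves show a rise of these targets with antimiR-206. Among those named, Tagln2 gave 2.08, Twf1 1.44, Timp3 1.32, Ets1 1.16, Fstl1 1.02, Smarcd1 1.01, Smarcd2 1.01, Tkt 0.81, Coro1c 0.60, Gja1 0.37 and Hdac4 -0.61. The targets Ccnd1 (2.02) and Igf1 (-2.37) are given above with other genes. Regulators of myogenesis gave 1.16 for Eya1, 0.57 for Six4, -1.12 for Zeb2 and -2.72 for Cdkn1a. The histone genes H2bc9 and H2bc14 gave -0.92 and -0.79.

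Among genes of metabolism, stress and survival the values were -2.70 for Car9, -1.74 for Dhcr7, -1.0 for Mdm2, -0.99 for Bcl2l1, -0.98 for Slc2a1, -0.79 for Mars1, -0.71 for Insig1, -0.57 for Ier3, -0.55 for Slc3a2, 0.73 for Gstp1, 0.91 for Slc25a1 and 1.03 for Gsta4. The remaining named genes gave 1.29 for Cd14, 0.98 for Ankrd13c, 0.87 for Ret, 0.70 for Foxa3, 0.49 for Gpsm3, -0.57 for Rpl37, -0.71 for Ybx3, -0.84 for Ermp1, -1.0 for Slc39a13 and -1.46 for Vwf.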

How the results depend on the processing

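AntimiR minus mimic kept 0 calls in 21 of 25 alternative settings, with 315 to 974 genes at an unadjusted p under 0.05. Leaving out each replicate in turn gave 0 to 1 calls, the 1 call (Wdr89) without mimic replicate 1, where 1300 genes had an unadjusted p under 0.05. Median scaling gave 1 (Rbm11, 1.00), array weights 527, and both replicate 1 arrays left out 444. Under median scaling the median of all genes was 0.29, the share of intervals within 2-fold was 32.5%, and the other counts were 987 for the difference of the differences and 1879 for Day2 minus Day1. All kept probes, tested each by itself, gave 7884 and 10598 of 19809. Without each replicate in turn these counts were 3996 to 5746 and 5506 to 6680, and the share of intervals within 2-fold was 94.9% to 98.8%. With both replicate 1 arrays left out, 9 named genes turned sign and passed: Asns 0.63, Ccnd1 0.48, Cox6a2 0.54, Prl2c2 0.57, Prl2c4 0.50, Dcn -0.64, Igf1 -0.76, Lpl -0.43 and Myod1 -0.47. The cause was not tested. With array weights 0 named genes turned sign and passed. Of 105 named genes 64 passed in 0 settings and 64 kept 1 sign in all of them. Relative to its shift of all genes, median scaling put the targets at 0.05, the cell cycle at 0.04, the histones at 0.23, the interferon response at -0.16, the matrix at 0.11 and the ribosomal proteins at -0.21, against 0.01 for the last under quantile normalization.

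The replicate number as a block gave 0 calls for antimiR minus mimic, 4347 for the difference of the differences and 5868 for Day2 minus Day1. Deviations from the group mean correlated at -0.55, -0.378 and -0.281 between same-numbered antimiR and mimic arrays. Deviations within a group of 3 sum to 0, and replicate 1 stood apart in both groups. These values therefore cannot decide whether the numbers pair the samples. With the replicate block 0 of the 105 named genes passed. With 3 arrays a group, and signals near background for Myog, Ckm, Actc1 and Vwf, small differences were not detectable. After adjustment over all genes, differences whose interval excluded 0 could also miss the threshold, as that of Bcl2l1 did (limma adjusted p = 0.648).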

Other observations

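Milk-protein genes, chosen after their values were seen, were raised on mimic replicate 3 above the other antimiR and mimic arrays. On that array the whey acidic protein gene Wap read 7.17, the casein genes Csn1s2b 6.5, Csn2 6.08, Csn1s1 5.43 and Csn3 5.08, at the brightest probe of each. The highest reading of the same probes over the 9 arrays other than this one and Day2 replicates 2 and 3 was 5.02 for Wap, 5.04 for Csn1s2b, 4.43 for Csn2, 4.58 for Csn1s1 and 4.81 for Csn3. Day2 replicate 3 read 9.97 for Wap, 8.84 for Csn1s2b and 8.42 for Csn2, and Day2 replicate 2 read 6.5, 5.66 and 5.19. These 2 replicates go by the labels of the scanner table and are exchanged in the processed table. The genes thus varied between replicates of a group, and no reason was tested.

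Other single arrays stood out at single genes. Ctcfl, a paralog of the insulator protein CTCF, read 5.53, 5.24 and 5.89 on the antimiR arrays, against 5.01, 6.46 and 7.70 on the mimic arrays. The defensin gene Defb28 read 5.56, 6.74 and 6.81, against 8.59, 5.5 and 5.38.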
